A study of Mus musculus with 2 samples.

Results

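The 9 genes described here form the cores of the angiotensin and endothelin systems of the mouse, and were chosen by name from the 55536 genes of the deposited gene table. They are the peptide precursors Agt and Edn1, the converting enzymes Ace and Ece1, the angiotensin receptors Agtr1a, Agtr1b and Agtr2, and the endothelin receptors Ednra and Ednrb. Their RNA was measured in hearts of 2 male B6CASTF1/J mice, F1 hybrids with 1 B6 and 1 CAST parent that came from The Jackson Laboratory, at an age of 2 months. Total RNA with ribosomal RNA reduced was sequenced as 1 library per heart from 300 ng of RNA. The labels give a single group, biological replicates 2 and 1, with no treatment, mutation or second tissue, so the data hold levels, ratios of genes within a heart and differences between the hearts, and no contrast between conditions. That the hearts came from separate animals is a reading of labels that number the males separately but share a donor entry.

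Both systems make a potent vasoconstrictor peptide by cutting a larger precursor. Renin cuts angiotensinogen to angiotensin I, and angiotensin-converting enzyme trims this to angiotensin II, while furin-like proteases and endothelin-converting enzyme release endothelin from its precursor. The main receptors of both peptides couple to Gq proteins, phospholipase C and calcium release, and in the heart act on vessels, muscle cells and fibroblasts.

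Levels are TPM (a share of all transcripts), which are corrected for transcript length, and were taken from the gene table, with expected counts (the quantifier's estimated number of reads per gene) beside low values. At 1 TPM or more in both hearts, 7 of the 9 genes were detected. The same threshold was passed by 21.5% of all genes and by 49.8% of the 22015 nuclear protein-coding genes. The enzyme gene Ece1 was the most abundant, the receptor genes Agtr1a and Ednra followed, and Ace, Ednrb, Agt and Edn1 came after them. Agtr1b and Agtr2 had no counts in either heart. In whole tissue, fewer cells of a type and less RNA per cell cannot be told apart.

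The sequences around several start sites are shown first. Annotated transcripts of Ace, Ece1 and Ednrb described below begin at different starts, and Agtr1b had no counts. Each line is a RefSeq promoter window on GRCm38.p6, 250 bases before to 50 bases after a RefSeq start, read 5′ to 3′ on the gene's strand. Capitals mark exact matches, on either strand, to a TATA box (TATAAA or TTTATA), a GC box (GGGCGG or CCGCCC) or a CCAAT box (CCAAT or ATTGG).
Ace, somatic start (chr11:105967698-105967997, plus strand): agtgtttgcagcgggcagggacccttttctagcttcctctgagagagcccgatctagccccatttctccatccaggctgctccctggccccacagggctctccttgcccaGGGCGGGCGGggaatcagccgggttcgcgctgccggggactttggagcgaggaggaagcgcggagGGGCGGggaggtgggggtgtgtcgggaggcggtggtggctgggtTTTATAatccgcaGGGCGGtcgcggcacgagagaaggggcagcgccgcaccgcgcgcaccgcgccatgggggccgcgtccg
Ace, internal start (chr11:105974939-105975238, plus strand): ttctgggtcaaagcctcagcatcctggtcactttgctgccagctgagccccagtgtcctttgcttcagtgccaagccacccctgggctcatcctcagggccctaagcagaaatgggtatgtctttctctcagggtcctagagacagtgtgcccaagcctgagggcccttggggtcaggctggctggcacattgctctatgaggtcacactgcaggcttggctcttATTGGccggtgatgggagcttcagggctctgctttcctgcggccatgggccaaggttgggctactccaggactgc
Ece1, upstream start (chr4:137861987-137862286, plus strand): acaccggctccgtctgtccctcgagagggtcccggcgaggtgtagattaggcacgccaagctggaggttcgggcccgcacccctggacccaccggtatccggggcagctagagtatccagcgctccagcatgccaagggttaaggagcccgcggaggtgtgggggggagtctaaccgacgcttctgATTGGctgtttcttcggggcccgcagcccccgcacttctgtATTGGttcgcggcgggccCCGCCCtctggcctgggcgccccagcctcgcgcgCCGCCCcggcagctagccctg
Ece1, downstream start (chr4:137913308-137913607, plus strand): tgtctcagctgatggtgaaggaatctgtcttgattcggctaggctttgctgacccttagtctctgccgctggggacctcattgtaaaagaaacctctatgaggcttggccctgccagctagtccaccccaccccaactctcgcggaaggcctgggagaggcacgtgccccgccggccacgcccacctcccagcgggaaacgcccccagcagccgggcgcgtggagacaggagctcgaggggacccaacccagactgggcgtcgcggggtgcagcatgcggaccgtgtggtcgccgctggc
Ednrb (chr14:103843652-103843951, minus strand): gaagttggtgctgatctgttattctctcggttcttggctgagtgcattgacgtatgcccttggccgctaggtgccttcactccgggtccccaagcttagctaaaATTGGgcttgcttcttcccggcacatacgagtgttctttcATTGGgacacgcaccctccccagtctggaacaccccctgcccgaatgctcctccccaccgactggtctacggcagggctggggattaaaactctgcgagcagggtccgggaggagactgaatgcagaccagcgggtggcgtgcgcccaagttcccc
Agtr1b (chr3:20367128-20367427, minus strand): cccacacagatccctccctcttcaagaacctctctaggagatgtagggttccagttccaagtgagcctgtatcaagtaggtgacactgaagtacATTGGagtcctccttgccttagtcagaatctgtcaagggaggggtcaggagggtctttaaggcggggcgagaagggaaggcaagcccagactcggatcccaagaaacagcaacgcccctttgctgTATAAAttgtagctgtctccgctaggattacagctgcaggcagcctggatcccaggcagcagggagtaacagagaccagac

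The somatic Ace window held a TATA match at -31 (in bases from the RefSeq start) and 4 GC boxes, of which those at -140 and -136 overlap. It had a GC content of 69.7% and 29 CpG pairs, against a median of 52.7% and 7 CpG pairs over 32851 RefSeq windows of mouse genes. The internal Ace window had a GC content of 59.0%, 2 CpG pairs and 1 CCAAT box, at -25. The upstream Ece1 window, with 2 GC boxes and 2 CCAAT boxes, resembled the somatic Ace window in base composition, at 69.3% GC and 28 CpG pairs. The downstream Ece1 window had 65.3% GC and 21 CpG pairs but no match to any motif searched. The Ednrb window, which held 2 CCAAT boxes, lies at the start of the transcript Ednrb-202, and none was found at that of Ednrb-201. The Agtr1b window held a TATA match at -31 and a CCAAT box at -156. RefSeq windows were found for 8 of the 9 genes (all but Agtr1a), 12 windows in all. Among them, 3 held a TATA match, 4 a GC box, 7 a CCAAT box and 0 an AP-1 site (TGACTCA or TGAGTCA). The Ece1 windows that begin at 137861987 and 137862030 overlap, so the same GC and CCAAT boxes were counted in both. Of all windows, 13.6% held the TATA match, 35.7% the GC box, 37.4% the CCAAT box and 5.2% the AP-1 site. These are matches of letters in a window and say nothing about whether a factor binds there.

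**Figure D1:**
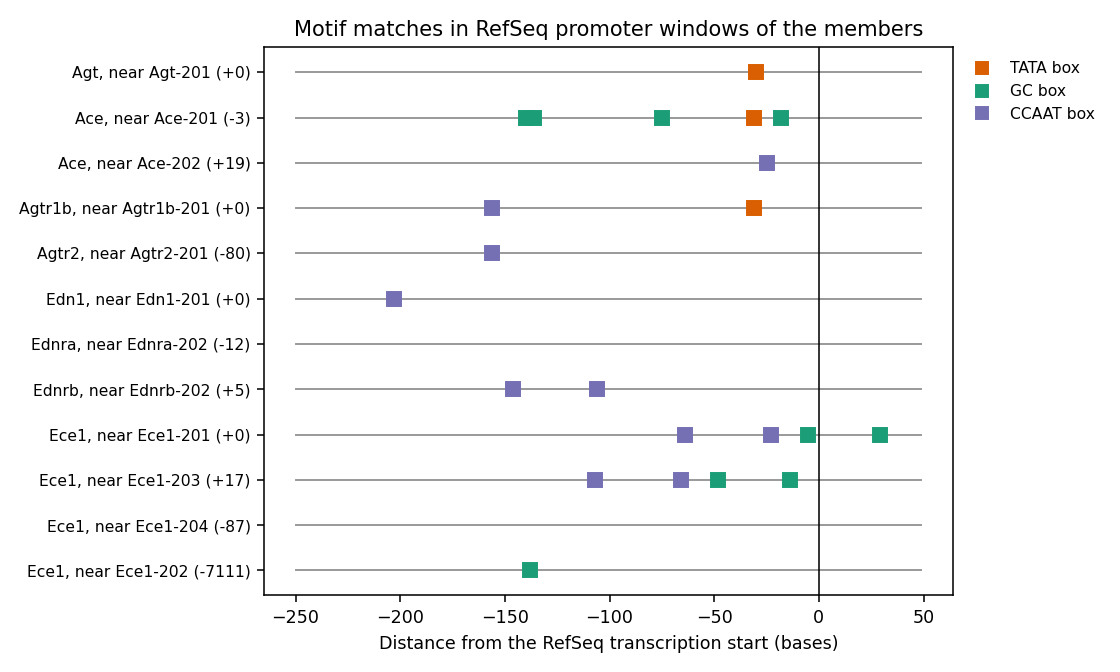
Positions of motif matches in the 12 RefSeq promoter windows of 8 genes (horizontal axis, distance in bases from the RefSeq start; each row is a window, named by the nearest annotated transcript start and its distance in bases; squares mark TATA, GC and CCAAT boxes). The somatic Ace window holds a TATA match and 4 GC boxes, while the internal one holds a single CCAAT box.

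Agt (ENSMUSG00000031980.9; mm10 chromosome 8, 124556534 to 124569706, minus strand) encodes angiotensinogen, the precursor that the liver supplies to the blood. It stood at 4.01 TPM in replicate 2 and 3.31 TPM in replicate 1, a mean of 3.66 ± 0.495 TPM (SD, n = 2), from 253 and 184 expected counts in replicates 2 and 1. It was above 23.8% of the detected nuclear protein-coding genes. Liver transcripts were near 0 in the same libraries: Alb and Serpina1c had 0 counts in both hearts, none of 6 liver markers was detected, and their summed level was 1.21 TPM in replicate 2 and 0.860 TPM in replicate 1. Agt has a single annotated transcript, of 1891 nucleotides in 5 exons.

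Edn1 (ENSMUSG00000021367.8; chromosome 13, 42301476 to 42307990, plus strand) encodes the precursor of endothelin 1, the peptide that endothelial cells release. It was the lowest of the detected genes, at 1.23 TPM in replicate 2 and 1.39 TPM in replicate 1 (1.31 ± 0.113), from 88 expected counts in each heart. Only 2.31% of the detected nuclear protein-coding genes were lower. Endothelial markers were well above it, with all 8 detected and a median of 27.4 ± 0.428 TPM, led by Egfl7 at 47.6 ± 7.18 TPM and Pecam1 at 46.6 ± 1.05 TPM. Of the other endothelin genes, Edn2 had 0 counts in both hearts, and Edn3 stood at 0.570 TPM in replicate 2 and 0.660 TPM in replicate 1, from 47 and 55 counts.

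Ace (ENSMUSG00000020681.14; chromosome 11, 105967945 to 105989964, plus strand) encodes angiotensin-converting enzyme, a peptidase of the cell surface that makes angiotensin II and also degrades bradykinin. Its level was 9.08 TPM in replicate 2 and 7.96 TPM in replicate 1 (8.52 ± 0.792), close to the middle of the detected nuclear protein-coding genes, of which 49.3% were lower. The gene has a somatic start and, within intron 12, an internal start that gives the short enzyme of the testis. The somatic transcript Ace-201, of 4906 nucleotides and 25 exons with 3936 coding bases, held 7.63 TPM in replicate 2 and 7.08 TPM in replicate 1. Its annotated first base lies 3 bases before the RefSeq start of the somatic window shown above. The testis-type transcript Ace-202, of 2418 nucleotides with 2196 coding bases, begins 7263 bases downstream and had 0 counts in both hearts and in both transcript tables. Another transcript, Ace-203, lacks its annotated 5′ end and begins in exon 5. It held 1.45 TPM in replicate 2 and 0.880 TPM in replicate 1, 16.01% and 11.04% of the gene. In the second transcript table it held 20.6% in replicate 2 and 14.5% in replicate 1, and Ace-201 held 71.0% and 78.2%. That table also gave the noncoding Ace-204 0.897 TPM in replicate 2 and 0.665 TPM in replicate 1, where the first gave it 0.

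Ece1 (ENSMUSG00000057530.14; chromosome 4, 137862237 to 137965229, plus strand) encodes the membrane protease that cuts big endothelin to the active peptide. With 46.1 TPM in replicate 2 and 44.2 TPM in replicate 1 (45.1 ± 1.36) it was above 88.5% of the detected nuclear protein-coding genes and ranked 1255 of 22015. Its level depended on the quantification: the second transcript table, quantified from reads without the alignments, gave 38.0 TPM in replicate 2 and 35.5 TPM in replicate 1. The full-length transcript Ece1-201, of 4816 nucleotides and 20 exons, took 97.0% of the gene's expected counts in replicate 2 and 96.2% in replicate 1. It took a smaller share of the TPM, 63.9% in replicate 2 and 59.9% in replicate 1, at 29.5 and 26.5 TPM, and it had 34.0 and 30.6 TPM in the second table. Short entries held the rest of the TPM. Ece1-203, an incomplete transcript of 172 nucleotides, had 27 counts in replicate 2 and 24 in replicate 1, which the first table turned into 10.5 and 10.6 TPM, while the second table gave it 0. Ece1-204, of 728 nucleotides, lacks its annotated 3′ end. It starts in intron 2, 51234 bases downstream of Ece1-201 and 87 bases before the RefSeq start of the downstream window. It had 5.37 TPM in replicate 2 and 6.23 TPM in replicate 1, from 119 and 121 expected counts, and 3.97 and 4.84 TPM in the second table. Past the last annotated base of Ece1-204, reads of RNA begun at the downstream start could be assigned only to Ece1-201. The counts therefore do not show how much each start was used.

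Agtr1a (ENSMUSG00000049115.15; chromosome 13, 30336441 to 30382867, plus strand) encodes the main type 1 angiotensin receptor of rodents, through which angiotensin II contracts vessels. It had 21.2 TPM in replicate 2 and 21.4 TPM in replicate 1 (21.3 ± 0.0990), above 75.4% of the detected nuclear protein-coding genes. Its second-table level was higher, at 33.5 TPM in replicate 2 and 31.5 TPM in replicate 1. The full-length transcript Agtr1a-201, of 2199 nucleotides with 1077 coding bases, was close in both tables, at 16.9 TPM in replicate 2 and 14.7 TPM in replicate 1 in the first and 18.0 and 15.8 TPM in the second. It took 95.8% of the gene's expected counts in replicate 2 and 92.9% in replicate 1. Its share of the TPM in the first table was smaller, 79.4% in replicate 2 and 68.8% in replicate 1. Of the short entries there, Agtr1a-203, an incomplete transcript of 436 nucleotides, held most. It had 2.73 TPM in replicate 2 and 3.30 TPM in replicate 1, from 32.4 and 34.5 expected counts, and 0 and 2.86 TPM in the second table. The tables parted most on the short, incomplete Agtr1a-206 of 445 nucleotides. It had 0.130 TPM in replicate 2 and 0.420 TPM in replicate 1 in the first table. In the second it had 13.2 and 9.46 TPM, from 64.9 and 41.1 estimated counts.

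Agtr1b (ENSMUSG00000054988.9; chromosome 3, 20314473 to 20367177, minus strand), the rodent paralog that encodes a second type 1 receptor, had 0 counts in both hearts and both tables. A count of 0 allows up to 3 counts, which for this gene is 0.0476 TPM in replicate 2 and 0.0540 TPM in replicate 1. The paralogs could be told apart over most of their length. Of 2851 distinct 31-base words in Agtr1a transcripts, 104 (3.65%) also occur in another gene, and of 2136 words in Agtr1b transcripts 107 (5.01%) do. Taken against that floor of 3 counts in each library, which covers counting error only, Agtr1a was at least 446-fold higher than Agtr1b in replicate 2 and at least 395-fold higher in replicate 1. Against the wider upper bounds of the deposited credibility intervals of Agtr1b, a comparison added after the values were seen, the folds were 279 in replicate 2 and 247 in replicate 1.

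Agtr2 (ENSMUSG00000068122.10; chromosome X, 21484544 to 21489164, plus strand) encodes the type 2 receptor, which is abundant in fetal tissue and opposes many type 1 actions. It also had 0 counts in both hearts and both tables, and its floor was 0.0502 TPM in replicate 2 and 0.0570 TPM in replicate 1. None of its 31-base words occurs in another gene. The deposited credibility intervals reached 0.397 TPM for Agtr2 and 0.0760 TPM for Agtr1b in replicate 2, and 0.447 and 0.0866 TPM in replicate 1.

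Ednra (ENSMUSG00000031616.7; chromosome 8, 77663031 to 77724464, minus strand) encodes the endothelin receptor of smooth muscle and heart muscle, which mediates contraction. Its level was 15.97 TPM in replicate 2 and 16.2 TPM in replicate 1 (16.1 ± 0.170). Nearly all of it lay on the coding transcript Ednra-201, at 15.7 TPM in replicate 2 and 15.6 TPM in replicate 1, and the retained-intron transcript Ednra-202 had 0.330 and 0.660 TPM. On the opposite strand, 4933431K23Rik spans the gene and had 0.510 TPM in replicate 2 and 0.780 TPM in replicate 1, from 49 and 67 counts. Whether counting used strand is not given in the sources used here, so some reads of this pair may be exchanged.

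Ednrb (ENSMUSG00000022122.15; chromosome 14, 103814625 to 103844402, minus strand) encodes the receptor that endothelial cells use to release nitric oxide and to clear endothelin. It had 6.23 TPM in replicate 2 and 5.63 TPM in replicate 1 (5.93 ± 0.424). Its level was spread over 3 transcripts with 1326 coding bases each, which differ in their untranslated ends. Ednrb-201 held 2.57 TPM in replicate 2 and 3.38 TPM in replicate 1. Ednrb-202 held 2.46 TPM in replicate 2 and 0.740 TPM in replicate 1, and Ednrb-203 held 1.2 and 1.5 TPM. The second table put more on Ednrb-201, 4.42 TPM in replicate 2 and 4.8 TPM in replicate 1, and less on Ednrb-202, 1.30 and 0.0034 TPM. Ednrb-202 and Ednrb-203 start 706 and 707 bases downstream of Ednrb-201, within its first intron, and the start of Ednrb-202 lies 5 bases after that of the RefSeq window shown above. Only 1 of the 31-base words of Ednrb-202 is absent from the other transcripts of the gene, against 275 for Ednrb-201 and 27 for Ednrb-203, so how reads were divided between the starts is uncertain.

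**Figure D2:**
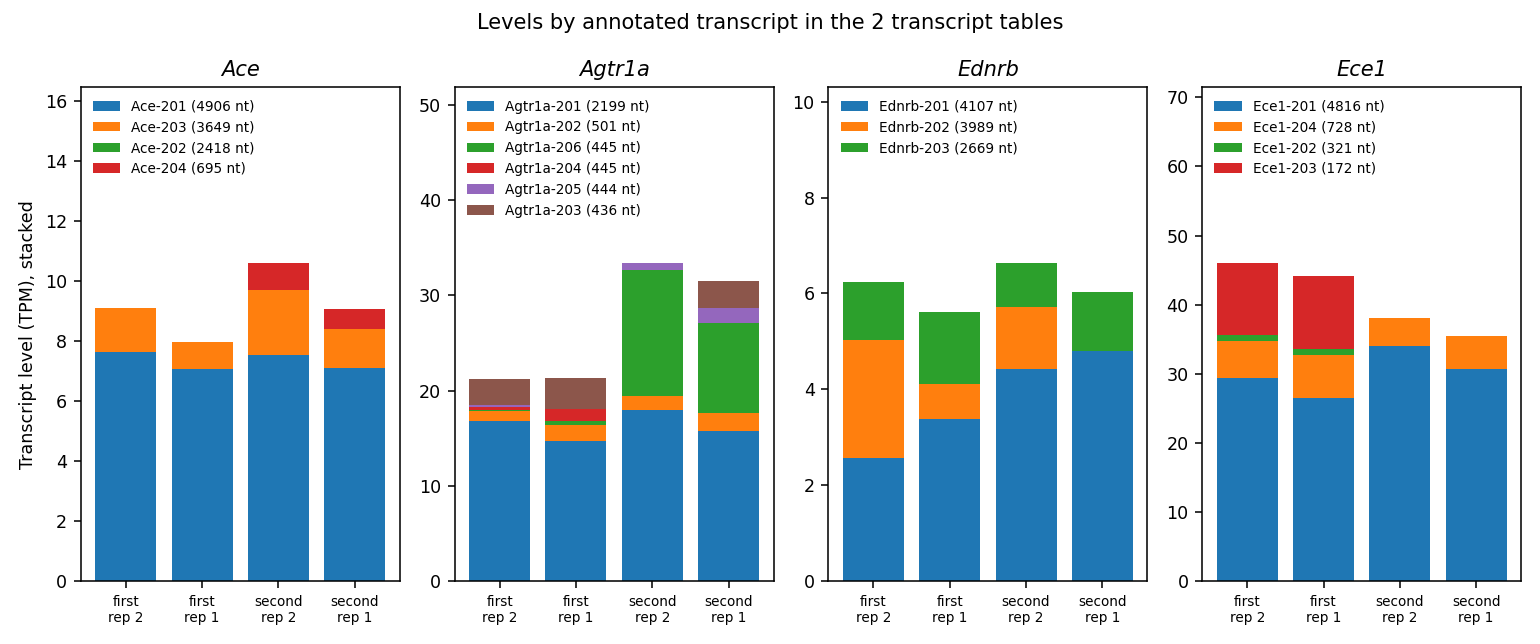
Levels of the annotated transcripts of Ace, Agtr1a, Ednrb and Ece1 (vertical axis, TPM, stacked by transcript) in replicates 2 and 1, in the first and the second transcript table. In replicate 2, Ece1-201 has 29.5 TPM in the first table and 34.0 TPM in the second, the short Ece1-203 has 10.5 and 0 TPM, and the short Agtr1a-206 has 0.130 and 13.2 TPM.

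The order of the levels was Ece1, Agtr1a, Ednra, Ace, Ednrb, Agt and Edn1, with Agtr1b and Agtr2 at 0. For each of the 6 neighbouring pairs of detected genes the values of the hearts did not overlap, and neither did the deposited intervals. The second table gave the same order, again with 0 overlapping pairs. In expected counts, which grow with transcript length, Ednra and Ace stood above Agtr1a in each heart. Ace had 1471 counts and Agtr1a 1300 in replicate 2, and 1151 and 1030 in replicate 1. The counts of Ace and Agtr1a overlapped only across the hearts, whose total counts differed. As shares of each heart's total they did not overlap. With the main transcript of each gene only, a choice made after the values were seen, Agtr1a overlapped Ednra (16.9 and 15.7 TPM in replicate 2, 14.7 and 15.6 TPM in replicate 1). Agt, at 3.66 ± 0.495 TPM, then stood above Ednrb, at 2.98 ± 0.573 TPM, and overlapped it.

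**Figure D3:**
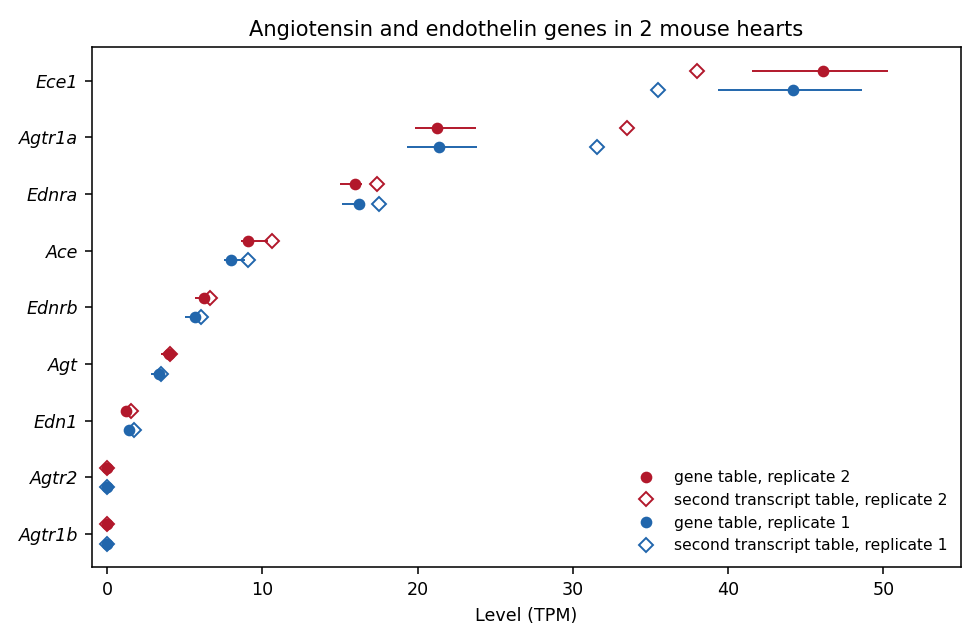
Level of each of the 9 genes (horizontal axis, TPM) in replicates 2 and 1; filled circles with lines are the gene table with its deposited credibility interval, open diamonds the second transcript table. Ece1 and Agtr1a lie apart in the 2 tables, the lower genes lie close together, and Agtr2 and Agtr1b lie at 0.

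Ratios within a heart do not depend on its depth. Ednra exceeded Ednrb 2.56-fold in replicate 2 and 2.88-fold in replicate 1 (2.72 ± 0.223), and 2.61-fold and 2.91-fold in the second table. Restricted to the main transcripts the ratio was 6.09 in replicate 2 and 4.6 in replicate 1. This restriction leaves out Ednrb-202 and Ednrb-203, which have as many coding bases as Ednrb-201. Because the division of reads among these transcripts is uncertain, so is the restricted ratio. The converting enzymes stood at an Ace to Ece1 ratio of 0.197 in replicate 2 and 0.180 in replicate 1 (0.189 ± 0.0119). This ratio was 0.267 ± 0.0166 in the second table and 0.263 ± 0.0059 for the main transcripts. Because 2 mice cannot bring a 2-sided exact paired p below 0.5, the ratios carry no p.

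Further ratios, chosen after the values were seen, set receptors and enzymes against their ligands. The summed endothelin receptors exceeded Edn1 18.0-fold in replicate 2 and 15.7-fold in replicate 1, and Ece1 exceeded Edn1 37.5-fold and 31.8-fold (24.4-fold and 20.8-fold in the second table). Agtr1a exceeded Agt 5.29-fold in replicate 2 and 6.46-fold in replicate 1 (8.23-fold and 9.11-fold in the second table, 4.20-fold and 4.44-fold for the main transcripts). Ace exceeded Agt 2.26-fold in replicate 2 and 2.40-fold in replicate 1. In each heart the RNAs of the detected receptors and of the enzymes stood above that of their ligand's precursor. Agtr1a exceeded Ednra 1.33-fold in replicate 2 and 1.32-fold in replicate 1. That ratio was 1.93 and 1.80 in the second table, and 1.08 and 0.945 for the main transcripts, so its direction was not settled.

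Between the hearts none of the detected genes differed 2-fold. Expected counts of genes summed to 44321172 in replicate 2 and 38963569 in replicate 1, and were scaled by TMM, a method that takes most genes as unchanged. Of the 7 genes 0 differed 2-fold or more, against 0.57% of the 12453 genes that averaged 50 or more expected counts. That share is so low that 0 of 7 does not set these genes apart. The log2 ratio of replicate 2 over replicate 1 was 0.23 for Agt (95% counting interval -0.05 to 0.51), 0.13 for Ednrb (-0.02 to 0.28) and 0.12 for Ace (0.0084 to 0.23). It was 0.10 for Agtr1a (-0.02 to 0.22), 0.09 for Ece1 (0.03 to 0.15), -0.07 for Ednra (-0.16 to 0.03) and -0.23 for Edn1 (-0.68 to 0.21). The intervals of 5 of the 7 genes included 0, as they did with DESeq2 size factors, but 3 did with total counts and 1, that of Edn1, with spike-ins. Scaling by spike-ins put the median of all genes tested at 0.18, against 0.0051 with TMM. Among all genes tested the median absolute log2 ratio was 0.08 and its 95th percentile 0.40. Each of the 7 lay below that percentile, as most genes do by definition. All of them except Ednra lay farther from 0 than the median gene. With spike-ins the log2 ratio of Ednra was 0.10, which turns its sign but lies below the median of 0.18 that this scaling gave.

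**Figure D4:**
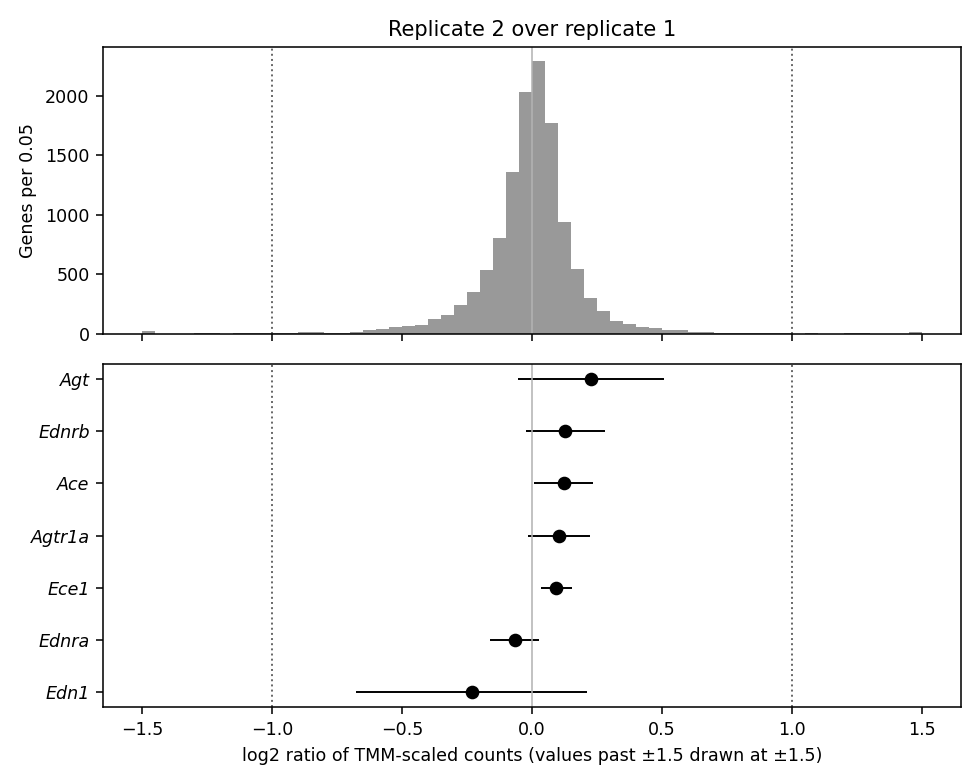
Log2 ratio of replicate 2 over replicate 1 (horizontal axis) for all 12453 genes tested (upper panel, genes per bin of 0.05) and for the 7 detected genes with 95% counting intervals (lower panel); dotted lines mark 2-fold. All 7 genes lie within the 2-fold lines, from -0.23 for Edn1 to 0.23 for Agt, and 14.1% and 14.8% of all genes tested lie at least as far from 0 as these.

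Red cell and adipocyte markers differed between the hearts. The summed level of 6 red cell markers was 6413 TPM in replicate 2 and 20348 TPM in replicate 1, and all 6 were past 2-fold, Hbb-bs and Hba-a1 leading. At 1 TPM in both hearts 5 of the 6 were detected. The summed level of 6 adipocyte markers was 27.99 TPM in replicate 2 and 11.65 TPM in replicate 1, with 5 of 6 detected, Car3 and Ucp1 highest and Plin1 and Ucp1 past 2-fold. The summed level of 5 smooth muscle markers, all detected and led by Smtn and Acta2, was 155 TPM in replicate 2 and 125 TPM in replicate 1, and that of 5 lymphatic endothelial markers, all detected and led by Ccl21a and Prox1, 63.8 and 50.8 TPM, with 0 of these 10 markers past 2-fold. The median log2 ratio of replicate 2 over replicate 1 was 0.37 for the smooth muscle markers and 0.17 for the lymphatic endothelial markers. The smooth muscle markers did not all differ: Smtn was at 52.6 TPM in replicate 2 and 52.0 TPM in replicate 1, and Acta2 at 51.2 and 36.3 TPM. No marker of these 4 lists was at 0 in both hearts. Their part in the differences of the angiotensin and endothelin genes was not tested. The tissue label was checked on marker genes. All 8 cardiomyocyte markers were detected, with a median of 3541 ± 163 TPM, led by Myl2 and Myh6, as were all 6 atrial markers, led by Myl4 and Myl7. Markers were also detected of fibroblasts (7 of 7, led by Dcn and Dpt), pericytes (6 of 6, Rgs5 and Abcc9), macrophages (6 of 7, C1qb and C1qa), endocardium (5 of 5, Vwf and Npr3), epicardium (5 of 5, Upk3b and Msln), and of Schwann cells and neurons (1 of 7). None of the 6 markers each of liver, lung epithelium, kidney, adrenal cortex and testis was detected, nor any of 6 mast cell markers.

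Of 87 other genes of the pathways, in 10 lists, 64 were detected and 7 had 0 counts in both hearts. Of all nuclear protein-coding genes, 49.8% were detected. Lnpep, Mme and Cma1 stand on 2 lists each. None of the 66 that could be compared between the hearts was past 2-fold, against 0.57% of all genes tested. For comparison, the median of detected nuclear protein-coding genes was 8.73 TPM.

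Upstream of the receptors, angiotensin enzymes other than Ace were unevenly represented. Of 14 such genes 9 were detected. The highest were the lysosomal proteases Ctsd, which can release angiotensin I in the test tube, at 374 ± 8.46 TPM, and Ctsa at 37.6 ± 0.976 TPM (59.5 TPM in replicate 2 and 53.5 TPM in replicate 1 in the second table), with the aminopeptidase Lnpep, also known as a receptor of angiotensin IV, between them at 70.3 ± 0.339 TPM. Ren1, the gene of renin, had 0 counts in replicate 2 and 2 in replicate 1. The mast cell chymase gene Cma1 was at 0.490 TPM in replicate 2 and 0.330 TPM in replicate 1, from 17 and 10 counts. Ren1 and Cma1 are named for their role, after their values were seen.

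Of 6 other angiotensin receptors and partners 4 were detected. After Lnpep, the highest were Mtus1, whose products bind the type 2 receptor, at 65.0 ± 1.12 TPM and Agtrap, which drives internalisation of the type 1 receptor, at 18.0 ± 0.120 TPM. Mrgprd had 0 counts in both hearts. In the aldosterone branch, the aldosterone and corticosterone synthase genes Cyp11b2 and Cyp11b1 had 0 counts, whereas Nr3c2, the mineralocorticoid receptor, stood at 9.94 ± 1.03 TPM and the kinase gene Sgk1, one of its known targets, at 21.3 ± 5.03 TPM. Hsd11b2, which shields that receptor from glucocorticoids, had 0 counts in replicate 2 and 1 in replicate 1. None of the 5 genes of the kinin branch, the other substrate system of Ace, reached 1 TPM. The highest was the bradykinin receptor gene Bdkrb2, at 0.15 TPM in replicate 2 and 0.1 TPM in replicate 1, from 20 and 11 counts. It was followed by the kallikrein gene Klk1 and the kininogen gene Kng2, with 2 and 3 counts in replicate 2 and 0 in replicate 1. The kininogen gene Kng1 and the receptor gene Bdkrb1 had 0 counts.

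Of 8 other ligands and enzymes of the endothelin pathway 2 were detected. Furin, a proprotein convertase that makes the first cut in the endothelin precursor, stood at 47.7 ± 2.49 TPM, near Ece1, and Mme, the neprilysin that degrades endothelins and angiotensins, at 5.62 ± 0.410 TPM. Ecel1, a relative of Ece1, had 0 counts in both hearts.

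Downstream of the receptors nearly all genes were detected. Among 12 genes of G proteins and phospholipase C 11 were, led by Gnai2 (92.0 ± 1.51 TPM), Gna12 (51.4 ± 0.820) and the phospholipase gene Plcb4 (23.7 ± 0.898). All 10 genes of arrestins, receptor kinases and RGS proteins were detected. Rgs5, a brake on Gq signalling that also marks pericytes, stood at 106 ± 4.95 TPM, Grk2 at 20.1 ± 1.96 TPM and Rgs2 at 18.6 ± 5.74 TPM. All 10 genes of protein kinase C, calcium-releasing receptors and cytoskeletal signalling were detected too, led by the small GTPase gene Rhoa at 85.2 ± 6.09 TPM and by the genes of its kinases, Rock2 at 30.5 ± 0.375 and Rock1 at 17.6 ± 0.940 TPM.

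Genes known to respond to these peptides were detected in 12 of 14 cases. The highest were Myh7, Nppa and Acta1, heart muscle genes that rise under pressure load, at 793 ± 92.4, 698 ± 0.643 and 98.8 ± 15.7 TPM. In the second table Myh7 had 1721 TPM in replicate 2 and 1457 TPM in replicate 1, and Acta1 143 and 179.8 TPM. With no second condition their levels cannot be read as a response. All 6 genes of the relaxing counterparts were detected, led by Npr3, the clearance receptor of natriuretic peptides, at 13.6 ± 0.325 TPM, Nos3, the endothelial nitric oxide synthase, at 9.02 ± 0.481 TPM and Gucy1a1, a subunit of its target guanylyl cyclase, at 6.60 ± 0.262 TPM.

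**Figure D5:**
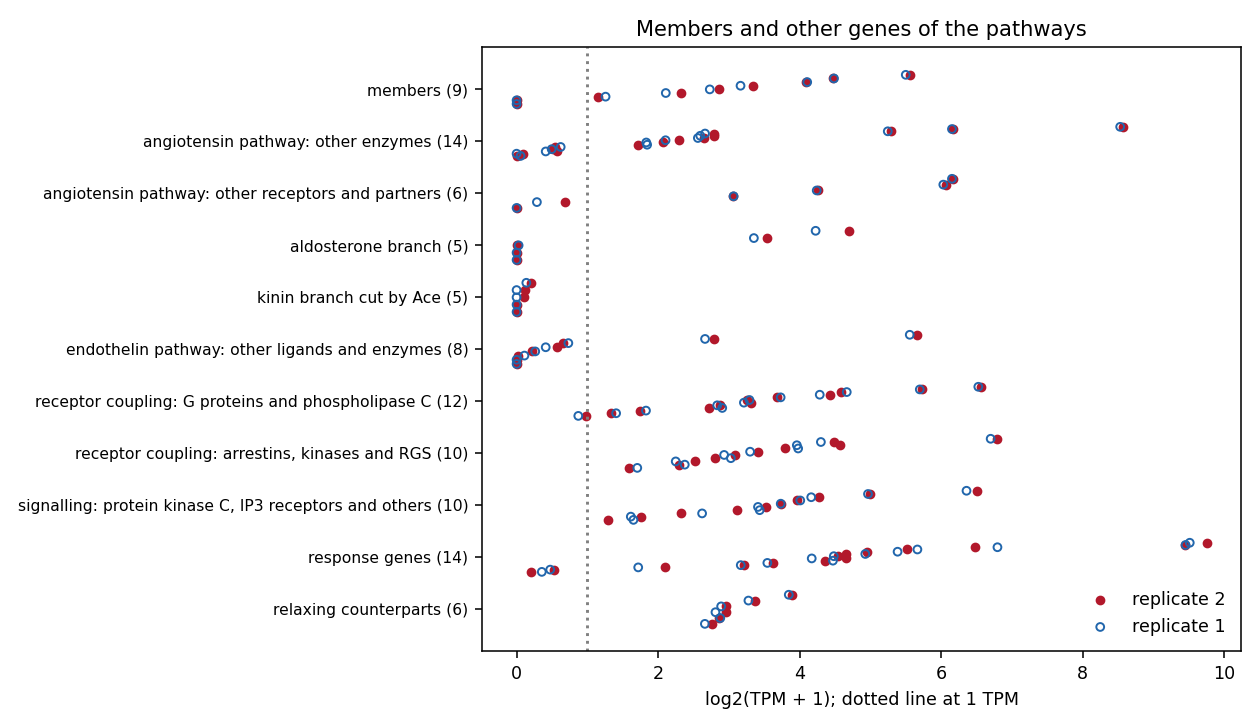
Levels of the 9 genes (top row) and of 10 lists of other pathway genes (number of genes in brackets), as log2(TPM + 1), in replicate 2 (filled) and replicate 1 (open); the dotted line marks 1 TPM. The kinin list lies below the line in both hearts, and the arrestin, protein kinase and relaxing lists lie above it.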

How the data were processed

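The 9 genes, the pathway and marker lists and the rule for named genes were chosen with earlier results of these data known. That rule named all 9 genes, the 3 highest of each pathway list, pathway genes past 2-fold between the mice, the 2 highest of each marker list (here only of lists with 2 or more detected genes), and genes of known role at 0; other genes are said to be chosen after their values were seen. Some list genes are not reported here.

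The authors deposited, per library, a gene table that lists expected counts beside TPM, FPKM and posterior means of TPM, per the file headers. The first transcript table adds the percent of a gene's level on each transcript, as deposited by the authors. Credibility interval bounds are the authors' deposited values, of unstated level. In the second transcript table the deposited values are TPM and estimated counts. Build mm10 and annotation GENCODE M21 come from the deposited file descriptions. No aligner or quantifier is named in the sources used here. The columns carry the names that RSEM and kallisto write. Reads from the CAST allele that differ from the B6 reference may map less often.

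Levels are means and SDs of TPM over the 2 mice, which were grouped by the labels' replicate numbers. Expected counts were rounded and scaled with edgeR 4.0.16 TMM factors in R 4.3.3, and the log2 ratio between mice used a prior count of 0.5 and genes averaging 50 or more expected counts. Counting intervals are Clopper-Pearson (exact, 95%). Like the floor of 3 counts, they cover counting error only, as no molecular identifiers were counted. The 97 spike-in entries were left out of gene totals. Word counts used the 31-base words of annotated transcripts. Promoter windows, motif matches and their shares come from a RefSeq table on GRCm38.p6. The statistics were tested on simulated data. Alternatives were FPKM, posterior mean TPM, the second table, rescaling to nuclear protein-coding genes, expected counts, DESeq2 1.42.0 size factors, total and spike-in scaling, other thresholds and priors, leaving out each mouse and, chosen after seeing the data, the main transcript only and the upper interval bound of Agtr1b. Other steps used numpy 2.4.6, scipy 1.17.1 and pandas 2.3.3 in Python 3.11.15.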

Additional observations from a re-analysis of the deposited data

How the results depend on the processing

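The count of detected genes was 7 with the second transcript table, posterior mean TPM, rescaled TPM, a threshold of 0.5 TPM, each mouse alone and the main transcripts, and 6 with FPKM or a threshold of 2 TPM, where Edn1 was lost. The Ace to Ece1 ratio of 0.189 was 0.267 in the second table, 0.289 in expected counts and 0.263 with main transcripts only. The Ednra to Ednrb ratio of 2.72 was 5.35 with main transcripts only, which leaves out Ednrb-202 and Ednrb-203. The lower bound of Agtr1a over Agtr1b, 421-fold on average, was 583-fold in the second table, 313-fold with main transcripts and 263-fold against the upper bound of the deposited interval, and the ratio of posterior means, which is no bound, was 633. Main transcripts and that upper bound were chosen after seeing the data. Of the 7 detected levels 5 moved by 1 SD or more in the second table and 2 with posterior means, and all 5 with several transcripts did with main transcripts only; leaving out a mouse cannot move a mean of 2 by 1 SD. With FPKM and with rescaled TPM, which change the scale of all genes, each detected level moved by 1 SD or more. Rescaling to nuclear protein-coding genes multiplied TPM by 2.54 in replicate 2 and 2.59 in replicate 1. Genes past 2-fold between mice numbered 71, and 5493 with no minimum count. The 10 pathway lists had 64 genes detected, 65 in the second table and 66 at 0.5 TPM. Edn1, with 88 counts in each heart, has the widest counting interval. No paired analysis was possible because the series has 1 group.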

Other observations

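Several annotated genes overlap the 9. The antisense genes Gm11651 over Ace, Gm47118 over Edn1 and Gm13012 over Ece1 had 0 counts in both hearts, so no reads were assigned to these antisense partners. Gm48161, which lies on the same strand within an intron of Agtr1a, stood at 0.230 TPM in replicate 2 and 0.200 TPM in replicate 1, from 14 and 11 counts. These genes were named for their position, after their values were seen.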
